A study of Arabidopsis thaliana with 6 samples.

Results

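MYBL2 and 9 other transcriptional regulators of flavonoid synthesis were followed in whole Arabidopsis thaliana seedlings. The 10 loci were taken by locus identifier from a table of 33602 loci: the repressor MYBL2, the anthocyanin MYB activators PAP1 and PAP2, the flavonol MYB activators MYB11, MYB12 and MYB111, the bHLH proteins TT8, GL3 and EGL3, and the WD40 protein TTG1. The mutant line was cfm6-1, given in the labels as CFM6-/- in the Col-0 background, and the comparison was wild type Col-0. CFM6 is a CRM domain protein that the series title ties to the splicing of a mitochondrial nad5 intron. Seedlings of both genotypes were 14 days old and had grown at 22 °C on half-strength MS medium with 1% sucrose, under 16 h of light and 8 h of dark. There were 3 libraries of each genotype, which the labels name biological replicates, and only 1 mutant allele was sequenced, so allele and genetic background cannot be told apart. Levels are RPKM, reads per kilobase of gene model scaled to library depth, and can be compared between genes because they are scaled by length.

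Flavonols and anthocyanins are phenolic compounds that plants make from phenylalanine, and anthocyanins colour leaves and seedlings under stress and in the presence of sugar. Early steps, shared with flavonols, are switched on by MYB11, MYB12 and MYB111, which act without a bHLH partner. Late anthocyanin steps are switched on by a complex of a PAP-type MYB, a bHLH protein and TTG1, and MYBL2 binds the bHLH protein and represses these steps. GL3, EGL3 and TTG1 also act in leaf hairs and root hairs.

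Small RNAs are known to act on several of these MYB transcripts, so their sequences and best pairing sites are given first. miR858 is known to act on flavonol MYB transcripts and on MYBL2, and miR828 on PAP-type MYB transcripts and on TAS4, a non-coding RNA that gives rise to further small RNAs. The mature sequences below are RefSeq annotations on TAIR10.1, 5′ to 3′, with the seed (bases 2 to 8) in capitals. Both miR858 forms are offset by 1 base and so have different seeds.
miR858a: uUUCGUUGucuguucgaccuu
miR858b: uUCGUUGUcuguucgaccuug
miR828: uCUUGCUUaaaugaguauucca

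The site with the fewest mismatches was searched, without gaps, in the spliced RefSeq transcript of each gene, and G:U pairs counted as mismatches. In the sites below, written 5′ to 3′ as DNA of the coding strand, capitals mark bases that pair with the small RNA and lower case marks those that do not. The first 4 are miR858a sites and the last 2 are miR828 sites.
MYBL2: cAGGaCGAACcGACAACGAAg
MYB11: cgGGaaGAACAGACAACGAAA
MYB12: cAGGgaGAACAGACAACGAAA
MYB111: cAGGaaGAACAGACAACGAAA
PAP1: TGGAAcACTCATcTgAGtAAGA
PAP2: TGGAAcACcCATcTgAGtAAaA
All 6 sites lie in coding sequence and in 1 exon. MYB12 and MYB111 had 3 mismatches to miR858a, and no other gene among 27440 had fewer. MYBL2 and MYB11 had 4, and to miR858b MYBL2 had 3. Sites with up to 5 mismatches to miR858a were found in 168 of the 27440 genes (0.612%), and the other 6 regulators had 7 to 9 mismatches. The site begins in codon 97 of all 3 flavonol MYB genes and in codon 65 of MYBL2, whose coding sequence holds 195 codons before the stop, against 342 to 371 in the flavonol MYB genes. The MYBL2 site is at chr1:26795757-26795777 on the minus strand. PAP1 had 4 mismatches to miR828 and PAP2 had 6, with the site starting in codon 104 of both; up to 5 mismatches occurred in 61 of 27438 genes (0.222%). MYB11 also had 6 mismatches to miR828 and MYB12 had 7, so by this count PAP2 does not stand apart from the flavonol MYB genes. A match is a description of the letters, and no cleavage was measured here.

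The libraries were deep and the genotypes stood well apart. Depth, read from how far apart the lowest values of short genes lie, was 47.3 to 52.7 M reads in cfm6-1 and 49.6 to 50.6 M in wild type. CFM6 (AT4G13070) was at 1.32, 1.23 and 1.32 RPKM in the cfm6-1 libraries, against 3.85, 3.69 and 4.1 RPKM in wild type (log2 change on RPKM + 1 of -1.09, SE 0.06, limma adjusted p = 1.20e-05), which goes with the labels. A filter of 1 RPKM or more in 3 or more libraries left 20047 loci, of which 68.8% passed the limma test at an adjusted p below 0.05, 38.6% higher and 30.2% lower in cfm6-1, and the values of the genotypes did not overlap at 74.3% of them. Shoot markers were present and all 5 were lower in cfm6-1, with a summed level of 14708 to 15833 RPKM in cfm6-1 and 22928 to 27030 RPKM in wild type. Of 6 root markers, 2 were higher and 3 lower, with sums of 2284 to 2716 RPKM in cfm6-1 and 1697 to 1909 RPKM in wild type. PYK10, one of those that rose, makes up most of that sum, and the median log2 change of the root markers was -0.46. Seed markers summed to at most 1.44 RPKM, reached in cfm6-1 replicate 1, and the seed genes SESA3 and LEC1 were at 0 in all libraries. The part of these shifts in the results below was not tested, and in whole seedlings fewer cells of a type and less RNA per cell cannot be told apart.

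MYBL2 showed the largest change among the 10 regulators on either scale used here: its transcript fell to 16.4% of the wild type level in cfm6-1. PAP1 and MYB12 rose, TTG1 fell, and EGL3 did not pass; the other 5 regulators were below the filter in most libraries. Of the 5 regulators tested, 4 passed, beside 68.8% of all tested loci. PAP1 entered the test only through the cfm6-1 libraries, where it is high. To reach the low transcripts, reads were rebuilt from RPKM, length and depth and tested by limma-voom over the 24160 loci with at least 10 reads in all libraries together, a setting chosen after seeing the data. There, 6 of the 10 passed, 4 higher and 2 lower, beside 64.1% of all loci, 35.9% higher and 28.2% lower. The values of the genotypes did not overlap for 5 of the 10 regulators, beside 70% of these loci.

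**Figure D1:**
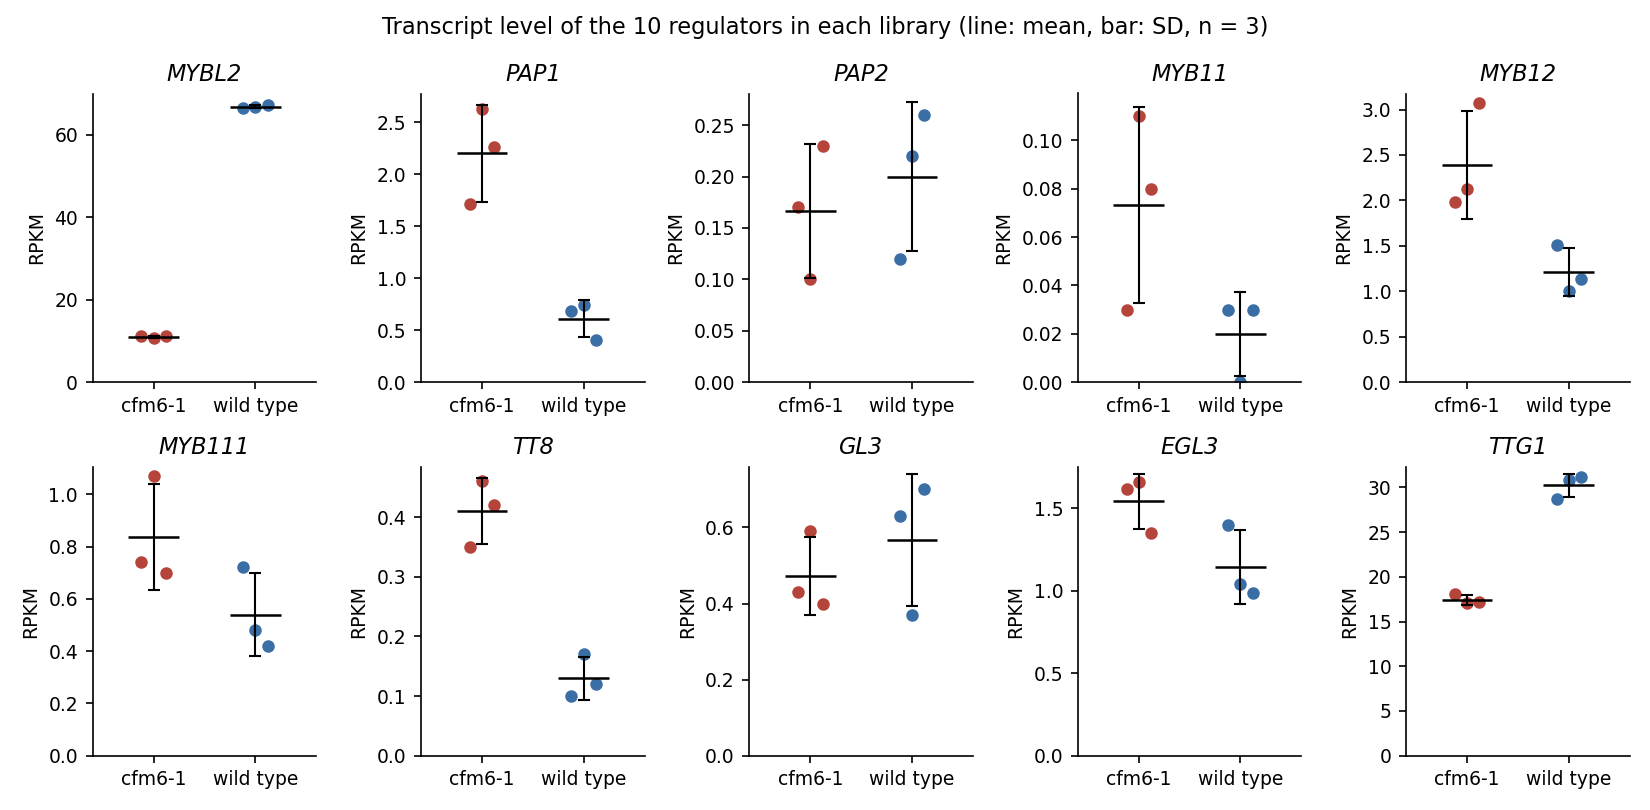
Transcript level (RPKM, y axis from 0, a different range in each panel) of the 10 regulators in the 3 cfm6-1 and 3 wild type libraries; points are libraries, lines are means and bars are SD. MYBL2 sits at 10.65 to 11.12 RPKM in cfm6-1 and at 66.59 to 67.21 RPKM in wild type, while PAP2, MYB11, MYB111, GL3 and EGL3 overlap between the genotypes.

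MYBL2 (AT1G71030, chr1:26795052-26796532, minus strand, 3 exons) encodes a MYB protein with a single MYB repeat that represses anthocyanin synthesis. It was at 11.12, 10.65 and 11.08 RPKM in cfm6-1 replicates 1 to 3, against 66.59, 66.70 and 67.21 RPKM in wild type replicates 1 to 3. All cfm6-1 libraries were far below all wild type libraries, and the spread within a genotype was small. The mean was 10.95 ± 0.261 RPKM in cfm6-1 and 66.8 ± 0.331 RPKM in wild type (SD, n = 3 each), so cfm6-1 kept 16.4% of the wild type level. On the log2(RPKM + 1) scale MYBL2 fell by 2.51 (SE 0.04, limma adjusted p = 2.21e-07). Only 70 of the 20047 tested loci (0.349%), MYBL2 included, passed and fell by at least as much on that scale. Loci with a low wild type level cannot fall that far on it, however large their fold change, so the share understates how common such falls were. The values rest on 1645 rebuilt reads in cfm6-1 and 9933 in wild type. The authors' deposited table gives MYBL2 a log2 fold change of -2.66 and an adjusted p of 0.000534; the labels do not state the direction of that table's comparison.

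The anthocyanin MYB activators PAP1 and PAP2 did not show the same pattern. PAP1 (AT1G56650, chr1:21233555-21235292, minus strand), whose activation is known to turn seedlings purple, was at 1.71, 2.63 and 2.26 RPKM in cfm6-1, against 0.68, 0.74 and 0.41 RPKM in wild type. The libraries of the genotypes did not overlap. Its mean of 2.20 ± 0.463 RPKM in cfm6-1 was 3.61-fold that in wild type, 0.610 ± 0.176 RPKM (SD, n = 3 each). PAP1 rose by 0.99 on the log2(RPKM + 1) scale (SE 0.13, limma adjusted p = 0.000434) and by 1.87 on rebuilt reads (SE 0.28, limma-voom adjusted p = 0.000612). The reads behind it were 309 in cfm6-1 and 84 in wild type, and in the authors' deposited table its adjusted p is 0.0563.

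PAP2 (AT1G66390, listed as MYB90 in RefSeq, chr1:24763941-24765541, plus strand), a close relative of PAP1, stayed near the limit of detection. It was at 0.17, 0.10 and 0.23 RPKM in cfm6-1, against 0.12, 0.22 and 0.26 RPKM in wild type, or 25 reads against 30. The genotypes overlapped, and the log2 change on rebuilt reads was -0.28 with a 95% interval from -1.31 to 0.76 (limma-voom adjusted p = 0.612). The interval spans changes in both directions. Beside PAP2 on chromosome 1 lie MYB113 and MYB114, PAP-type MYB genes 9.18 and 4.99 kb away. MYB113 was at 0.31, 0.39 and 0.18 RPKM in cfm6-1, against 0, 0.08 and 0.08 RPKM in wild type (log2 change on rebuilt reads 2.57, SE 0.75, limma-voom adjusted p = 0.0163). Its reads were 33 in cfm6-1 and 6 in wild type, so MYB113 entered that test only through the cfm6-1 libraries, where it is high. MYB114 was at 0.15, 0 and 0 RPKM in cfm6-1, against 0 in all 3 wild type libraries.

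The flavonol MYB activators were higher on average in cfm6-1, and MYB12 passed the test. MYB12 (AT2G47460, chr2:19476326-19479597, plus strand), known to switch on CHS and FLS1, was at 1.98, 2.12 and 3.07 RPKM in cfm6-1, against 1.51, 1.00 and 1.13 RPKM in wild type. Each cfm6-1 library was above each wild type library, with replicate 3 the highest in cfm6-1 and replicate 1 the highest in wild type. The mean was 2.39 ± 0.593 RPKM in cfm6-1 and 1.21 ± 0.265 RPKM in wild type (SD, n = 3 each), a 1.97-fold difference. MYB12 rose by 0.61 on the log2(RPKM + 1) scale (SE 0.14, limma adjusted p = 0.00647), while the authors' deposited table gives an adjusted p of 0.148.

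MYB111 (AT5G49330, chr5:19998823-20001572, minus strand), which acts on the same targets mainly in the cotyledons, was at 0.74, 1.07 and 0.70 RPKM in cfm6-1, against 0.72, 0.48 and 0.42 RPKM in wild type. The genotypes overlapped through the wild type replicate 1, and the log2 change on rebuilt reads of 0.64 did not pass (95% interval 0.02 to 1.25 before adjustment, limma-voom adjusted p = 0.0672). MYB11 (AT3G62610, chr3:23154630-23156585, plus strand) was the lowest of the 10, at 0.03, 0.11 and 0.08 RPKM in cfm6-1 and 0.03, 0 and 0.03 RPKM in wild type. These values stand for 14 reads in cfm6-1 and 4 in wild type, and the 0 in wild type replicate 2 allows up to 0.0477 RPKM (3 reads, counting error only). MYB11 was not resolved at this depth (log2 change on rebuilt reads 1.69, 95% interval -0.06 to 3.44, limma-voom adjusted p = 0.0823).

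Among the bHLH genes TT8 rose on rebuilt reads, EGL3 passed under one test and not the other, and GL3 did not pass. TT8 (AT4G09820, chr4:6181881-6186523, plus strand), the bHLH partner in anthocyanin and seed tannin synthesis, was at 0.35, 0.46 and 0.42 RPKM in cfm6-1, against 0.10, 0.17 and 0.12 RPKM in wild type. The genotypes did not overlap, and the reads were 115 in cfm6-1 and 36 in wild type. TT8 was below the filter of the RPKM test; on rebuilt reads it rose by 1.65 on the log2 scale (SE 0.29, limma-voom adjusted p = 0.00131), and its mean RPKM was 3.15-fold that in wild type. The authors' deposited table gives TT8 an adjusted p of 0.0237.

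EGL3 (AT1G63650, chr1:23599413-23603164, plus strand), a bHLH partner in both anthocyanin synthesis and leaf hairs, was at 1.62, 1.66 and 1.35 RPKM in cfm6-1, against 1.40, 1.04 and 0.99 RPKM in wild type. Replicate 3 of cfm6-1 lay below wild type replicate 1. The log2(RPKM + 1) change of 0.25 (SE 0.10) did not pass (limma adjusted p = 0.0540), and the change of 0.44 on rebuilt reads did (SE 0.16, limma-voom adjusted p = 0.0381). GL3 (AT5G41315, chr5:16529090-16533287, plus strand), best known from leaf hairs, was at 0.43, 0.59 and 0.40 RPKM in cfm6-1, against 0.63, 0.37 and 0.70 RPKM in wild type. The genotypes overlapped (log2 change on rebuilt reads -0.21, 95% interval -0.86 to 0.45, limma-voom adjusted p = 0.543).

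TTG1 (AT5G24520, chr5:8370317-8372847, minus strand, 2 exons) encodes the WD40 scaffold that holds the MYB and bHLH proteins together. It was at 18.06, 17.10 and 17.15 RPKM in cfm6-1, against 28.75, 30.78 and 31.19 RPKM in wild type. All cfm6-1 libraries were lower than all wild type libraries. Its mean of 17.4 ± 0.540 RPKM in cfm6-1 was 57.7% of that in wild type, 30.2 ± 1.31 RPKM (SD, n = 3 each), and it fell by 0.76 on the log2(RPKM + 1) scale (SE 0.05, limma adjusted p = 1.82e-05). MYBL2 and TTG1, the pair that fell, were also the 2 regulators with the highest levels in both genotypes.

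**Figure D2:**
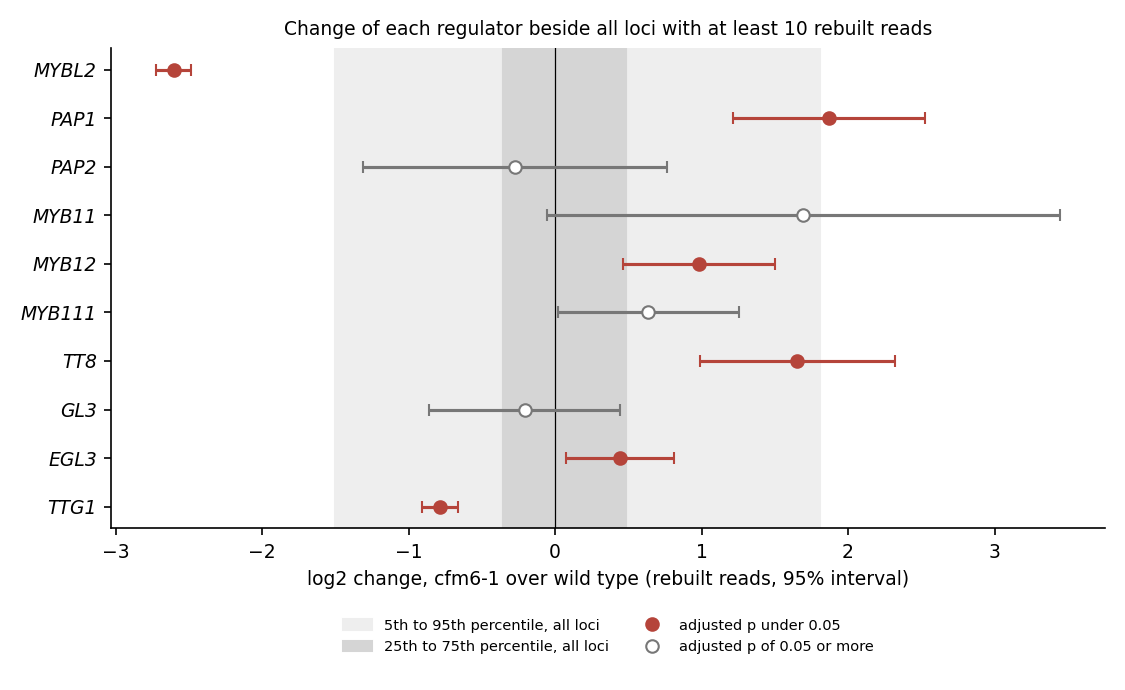
Log2 change on rebuilt reads (x axis, cfm6-1 over wild type) of each regulator with its 95% interval; filled points passed at an adjusted p below 0.05, and grey bands give the interquartile range and the range from the 5th to the 95th percentile of all 24160 loci. MYBL2, at -2.60, lies with its whole interval outside the wider band of -1.50 to 1.81. The point of PAP1, at 1.87, lies just outside, and its interval of 1.22 to 2.53 reaches into the band.

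The order of the levels differed between the genotypes. In cfm6-1 TTG1 (17.4 RPKM) stood above MYBL2 (10.95 RPKM), followed by MYB12 and PAP1, whose ranges overlapped, then EGL3, MYB111, GL3 and TT8, the last 2 again overlapping, and last PAP2 and MYB11, which overlapped too. In wild type MYBL2 (66.8 RPKM) stood above TTG1 (30.2 RPKM), followed by MYB12 and EGL3 with overlapping ranges, then PAP1, GL3 and MYB111, where neighbours overlapped, then PAP2 and TT8, also overlapping, and MYB11. MYBL2 made up 29.2% to 30.7% of the summed RPKM of the 10 regulators in cfm6-1 libraries and 65.6% to 66.2% in wild type libraries. The sum itself was 36.2 to 36.7 RPKM in cfm6-1 and 100.5 to 102.5 RPKM in wild type.

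Within each library the repressor MYBL2 was set against the anthocyanin MYB activators. The ratio of MYBL2 to PAP1 plus PAP2 was 5.91, 3.90 and 4.45 in cfm6-1, against 83.2, 69.5 and 100.3 in wild type. The ranges were far apart, with a log2 difference of -4.15 (exact permutation p = 0.1, two-sided; with 3 libraries a side no lower p is possible). TT8 made up 14.6%, 17.0% and 19.4% of the summed RPKM of the 3 bHLH genes in cfm6-1, against 4.69%, 10.8% and 6.63% in wild type (exact permutation p = 0.1). EGL3 was the largest part in every library. The 3 flavonol MYB genes summed to 2.75, 3.30 and 3.85 RPKM in cfm6-1, against 2.26, 1.48 and 1.58 RPKM in wild type (log2 difference 0.91, exact permutation p = 0.1). With a pseudocount of 1 that difference was 0.40. These 3 ratios and sums were the only ones tested this way, and all adjusted p-values were 0.1.

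**Figure D3:**
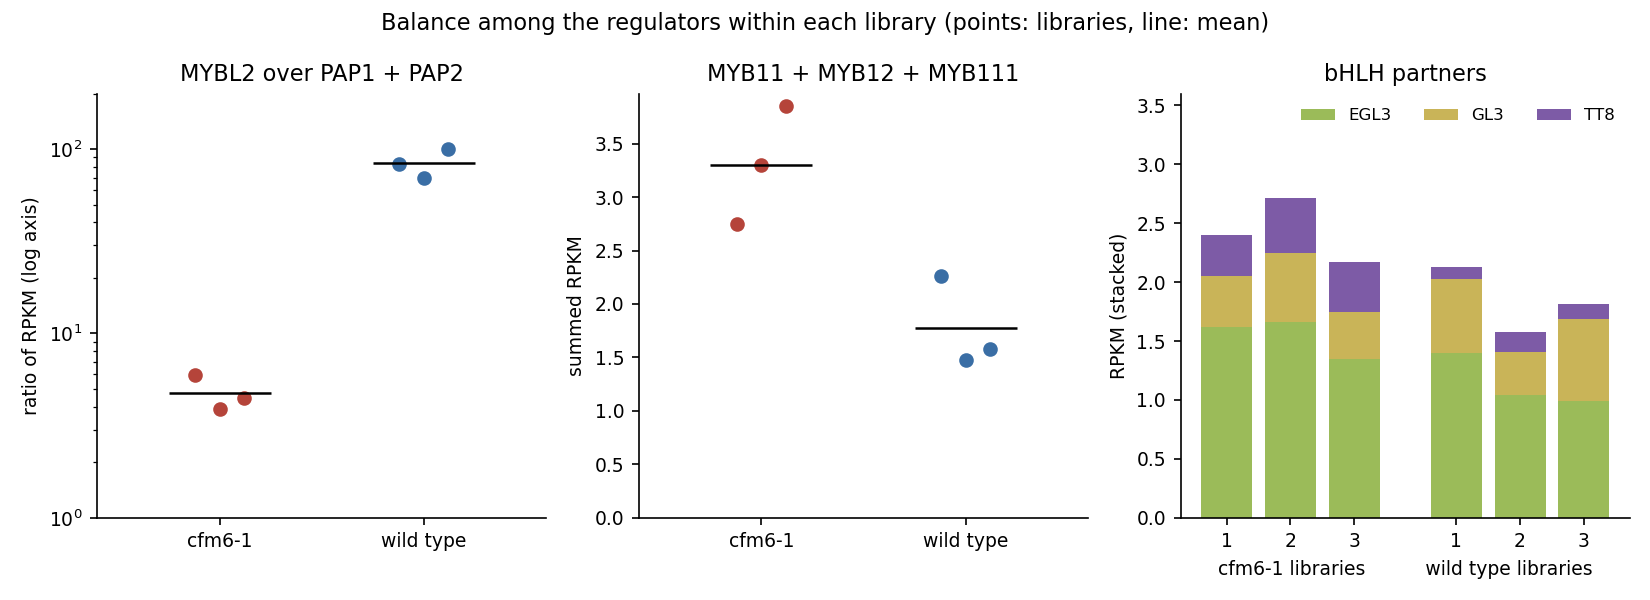
Left, the ratio of MYBL2 to PAP1 plus PAP2 in RPKM on a log axis; middle, the summed RPKM of MYB11, MYB12 and MYB111; right, the stacked RPKM of EGL3, GL3 and TT8 in each library. Points are libraries and lines are means; the ratio is 3.90 to 5.91 in cfm6-1 and 69.5 to 100.3 in wild type, and the TT8 part of the stack is larger in each cfm6-1 library than in any wild type library.

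The transcripts that carry the sources of these small RNAs were barely detected. MIR858a (AT1G71002), 21.3 kb from MYBL2 on chromosome 1, was at 0 RPKM in all 3 cfm6-1 libraries, against 0.11, 0 and 0.21 RPKM in wild type, 3 reads in all. MIR828 (AT4G27765) had 18 reads in cfm6-1 and 7 in wild type, with overlapping values of 0.33, 0.60 and 0.89 RPKM in cfm6-1 and 0.11, 0.52 and 0.10 RPKM in wild type. TAS4 (AT3G25795) had 44 reads in cfm6-1 and 24 in wild type, and its values also overlapped. Mature small RNAs were not measured here, and MIR858b, looked up as AT1G09213, is not among the loci with RPKM values. Of the genes shown above with a miR858a site, MYBL2 fell and MYB12 rose, while MYB11 and MYB111 did not pass on rebuilt reads. Whether miR858 had a part in these values was not tested.

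By distance between profiles, 5 loci lay nearest to MYBL2 over the 6 libraries, out of 14020 candidates that averaged 5 RPKM or more and had few multiply mapped reads. They were the beta-xylosidase BXL2, the beta-galactosidase BGAL1, AT3G23480, the flowering time gene AGL20 (also SOC1) and AT1G52190 (NPF1.2, a transporter of the nitrate and peptide family), with root-mean-square differences of 0.07 to 0.09 on the log2(RPKM + 1) scale. BXL2 was at 8.27, 8.43 and 8.62 RPKM in cfm6-1, against 48.45, 48.82 and 50.06 RPKM in wild type. AT3G23480 averaged 1.03 RPKM in cfm6-1 and 9.90 RPKM in wild type. It thus became a candidate only through the wild type libraries, where it is high. Its log2 change on rebuilt reads was -3.25, against -2.60 for MYBL2, so its nearness depends on the log2(RPKM + 1) scale. The first principal component of all tested loci held 91.1% of the variance. At all 5 nearest loci the values of the genotypes did not overlap. The choice by nearness to MYBL2, whose own values do not overlap, fixed this in advance. The 74.3% of all tested loci is therefore no measure for it.

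The structural genes that these regulators act on were then read from lists of the pathway. Among 11 genes of early and flavonol steps, 10 were tested, 4 rose and 2 fell, beside 38.6% higher and 30.2% lower over all tested loci. The median log2 change was 0.11, beside 0.05 over all tested loci. One of the falls, at AT1G06000, is uncertain, since its multiply mapped share reached 0.698. CHS, chalcone synthase, which opens the pathway, was at 48.5 ± 1.98 RPKM in cfm6-1 and 13.6 ± 2.34 RPKM in wild type (SD, n = 3 each; 3.56-fold, limma adjusted p = 1.39e-05). CHI, chalcone isomerase, rose 2.64-fold and UGT78D2, a flavonoid glucosyltransferase, 1.66-fold, while FLS2, a flavonol synthase relative, fell to 52.3% of wild type. FLS1, the main flavonol synthase, named after its values were seen, was at 3.10, 4.74 and 6.31 RPKM in cfm6-1, against 1.33, 1.54 and 2.01 RPKM in wild type. The 4 tested genes of this list that did not pass were F3H, F3'H, UGT78D1 and CHIL. They were at 94.8%, 102.7%, 106.1% and 112.9% of the wild type level, and the multiply mapped share of F3H reached 1.

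Among 9 genes of late anthocyanin steps, 7 were tested, 5 rose and 2 fell, beside 38.6% higher and 30.2% lower over all tested loci, with a median log2 change of 0.42. The rises number 3 when replicate 1 or 2 of either genotype is left out. DFR, dihydroflavonol reductase, the first late enzyme, was at 6.57, 6.62 and 3.77 RPKM in cfm6-1, against 0.71, 1.85 and 1.25 RPKM in wild type (4.45-fold, limma adjusted p = 0.000866). LDOX, which forms anthocyanidins, rose 2.58-fold, but it entered the test only through the cfm6-1 libraries, where it is high (limma-voom adjusted p = 0.00190 on rebuilt reads). SCPL10, a serine carboxypeptidase-like protein, rose 2.10-fold. Both falls were at acyltransferase loci that share reads with other loci: AT1G03495 fell to 71.8% of wild type with a multiply mapped share of up to 0.170, and AT1G03940 had a share of up to 0.192. One of the rises, at AT4G14090, had a share of up to 0.170 too, so all 3 are uncertain. None of 7 seed tannin genes reached the filter; TT2, TT1, TT16 and BAN were at or below 0.16 RPKM in every library.

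Other repressors and inhibitors of the complex did not follow MYBL2 as a group. Of 4 R2R3 MYB repressors of subgroup 4, 2 rose and 1 fell, with a median log2 change of 0.30; 68.8% of all tested loci passed. MYB3 fell to 47.9% of wild type (7.87 ± 0.176 RPKM in cfm6-1 and 16.4 ± 0.433 RPKM in wild type, n = 3 each, limma adjusted p = 6.23e-06) and MYB4 rose 1.52-fold and MYB7 1.37-fold. MYB32 did not pass, at 5.22 ± 0.656 RPKM in cfm6-1 and 4.46 ± 0.356 RPKM in wild type, but passed without cfm6-1 replicate 2 (log2 change 0.27, limma adjusted p = 0.0220). Of 6 single-repeat inhibitors known from leaf hairs and root hairs, 3 were tested, with a median log2 change of -0.12: ETC2 fell to 49.6% of wild type, CPC rose 1.36-fold and ETC3 did not pass, while TRY, at 0.563 ± 0.0950 RPKM in cfm6-1 and 0.680 ± 0.0600 RPKM in wild type, was below the filter. The call on CPC is lost when either wild type replicate 2 or 3 is left out (limma adjusted p of 0.0523 and 0.0524), which leaves 1 of the 3 called. ETC2 entered the test only through the wild type libraries, where it is high (limma-voom adjusted p = 0.00553 on rebuilt reads), and 2 of 3 passing stands beside 68.8% of all tested loci.

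Genes that work with GL3, EGL3 and TTG1 in epidermal cells gave 3 falls and 1 rise among 5 tested of 6, beside 30.2% lower and 38.6% higher over all tested loci, with a median log2 change of -0.33. GL2, a homeodomain factor downstream of the complex, fell to 44.3% of wild type (limma adjusted p = 8.88e-05), MYB23, a leaf hair MYB, to 53.3% and WER, a root epidermis MYB, to 73.5%. The WER call is lost without wild type replicate 1 or 3 or cfm6-1 replicate 1 or 3 (limma adjusted p of 0.0520 to 0.0639). TTG2, a WRKY factor, rose 1.56-fold. Root and shoot marker levels, given above, differed between the genotypes as well, and their part in these values was not tested.

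Regulators that feed light, nitrogen or age into the pathway moved in both directions. Of 18 such genes, all tested, 9 fell and 5 rose, beside 30.2% lower and 38.6% higher over all tested loci, with a median log2 change of -0.26. BBX24, a B-box factor of light signalling, fell to 50.2% of wild type, PIF5, a phytochrome-interacting factor, to 59.1% and LBD37, a nitrogen-linked repressor of anthocyanin genes, to 66.6%. NAC032, a stress-linked NAC factor that represses anthocyanin genes, rose 2.93-fold (30.2 ± 4.90 RPKM in cfm6-1 and 10.3 ± 0.255 RPKM in wild type, n = 3 each). In the protein turnover list, 4 of 6 tested genes fell and none rose by limma, beside 30.2% lower and 38.6% higher over all tested loci, with a median log2 change of -0.59. AT1G23390, a Kelch-repeat F-box protein gene, fell to 42.8% of wild type (53.9 ± 1.77 RPKM in cfm6-1 and 125.8 ± 7.90 RPKM in wild type), and the related KFB50 and KFB20 to 48.7% and 47.4%; MPK4, a MAP kinase, fell to 90.1%, a call lost without wild type replicate 2 or 3 or cfm6-1 replicate 1 or 3 (limma adjusted p of 0.0823 to 0.133).

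**Figure D4:**
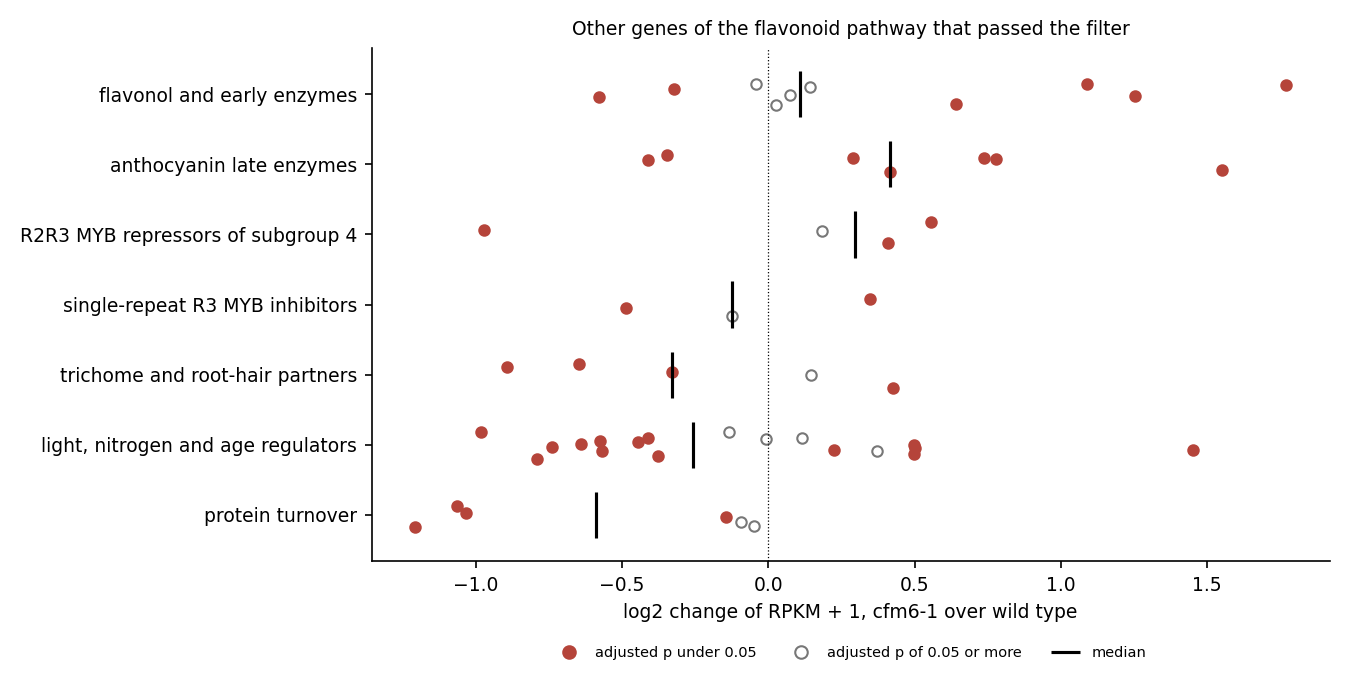
Log2 change on the RPKM + 1 scale (x axis, cfm6-1 over wild type) of each tested gene in 7 lists of the flavonoid pathway; filled points passed at an adjusted p below 0.05 and bars are medians. The early list runs up to CHS at 1.77, the turnover list has its median at -0.59, and the repressor list holds MYB3 at -0.97 beside MYB4 at 0.56.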

How the data were processed

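RNA-seq of whole seedlings gave 6 libraries, 3 of cfm6-1 and 3 of wild type, read as 100 bp single ends per the labels' protocols. The deposited RPKM values, with 2 decimals, were made by the authors on TAIR10, per the submitters' processing notes; the aligner, the counter, its strand setting and the annotation are, in the sources used here, not given. The authors also deposited gene model lengths in kb, the fraction of multiply mapped reads per locus, and for each locus a p-value, its adjusted form and a log2 fold change; the log base was read from the sizes, and the values are quoted as theirs. A further 6 columns of per-sample values under codes not tied to the labels, and the mapping totals under the same codes, were not used.

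Depth was estimated from the steps of 1 read in loci under 0.3 kb; all nonzero low values came out whole within 0.1 read. Reads rebuilt from RPKM carry rounding of RPKM, and limits from 3 reads cover counting error only. Values were taken as log2(RPKM + 1) for loci reaching 1 RPKM in 3 or more libraries and tested with limma (version 3.58.1, R 4.3.3), its trend option, Benjamini-Hochberg adjustment over all tested loci and a threshold of 0.05. Fold changes on that scale understate the change of low transcripts. Ratios were tested by two-sided exact permutation in scipy 1.17.1. Alternatives were a pseudocount of 0.1, no filter, 2 other scalings, limma-voom on rebuilt reads, a replicate block and leaving out each library; limma-voom on loci with at least 10 rebuilt reads was added after seeing the data. Members and lists were chosen with earlier results of these data known; some list names come from the literature. Named were all 10 members, CFM6, up to 4 genes of each list by adjusted p, and the 5 profiles nearest to MYBL2. Sequences and gene coordinates are RefSeq TAIR10.1.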

Additional observations from a re-analysis of the deposited data

How the results depend on the processing

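Counts of calls shifted by a few genes between settings. Of the late enzymes 5 to 7 passed with each library left out and 6 with the replicate block, against 7. Of the light, nitrogen and age list 13 to 16 passed over all settings, against 14. MYBL2, PAP1, MYB12 and TTG1 passed with the same sign in each fit. EGL3 passed in 5: both limma-voom fits, the replicate block (adjusted p = 0.0479), without wild type replicate 1 (0.0166) and without cfm6-1 replicate 3 (0.0411). Of the seed tannin genes, 1 passed by limma-voom on loci with at least 10 rebuilt reads and 1 with no filter, against 0 with the filter, in opposite directions. The first, TT2, had 14 reads in cfm6-1 and 1 in wild type, so it entered only through cfm6-1, where it is high. The second, TT16, had 1 read in cfm6-1 and 8 in wild type. The other PAP-type MYB genes gave 1 and 1 against 0, each time MYB113, with 33 reads in cfm6-1 and 6 in wild type. Over all loci, 64.1% passed by that limma-voom fit, and 15211 of 27471 with no filter. More loci were tested in both settings. Of the single-repeat inhibitors 4 passed with no filter, and 1 to 2 with each library left out. ETC3, which did not pass, ranged over a log2 change of -0.32 to 0.078 with each library left out, above 0 without wild type replicate 1 (0.078) or cfm6-1 replicate 1 (0.0095), against -0.12 with all libraries; the cause was not tested. Of all calls, 56.1% were higher in cfm6-1, against 50.2% with median-of-ratios scaling and 47.5% with quantile normalization. Replicate numbers did not pair the libraries: same-numbered libraries correlated at 0.03, -0.14 and -0.0023 in their deviations. With the replicate block 5 members passed instead of 4. With a pseudocount of 1 the log2 difference of the MYBL2 ratio was -3.14, against -4.15. The exact permutation tests cannot pass at this size. Depth limits MYB11 and PAP2, with 14 and 25 reads in cfm6-1, against 4 and 30 in wild type.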

Other observations

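Some pathway loci below the filter passed by limma-voom on rebuilt reads, where 64.1% of all loci passed. Those that passed were named after their values were seen. Listed loci below the filter that were tested there and did not pass were UGT79B1, TT12, AHA10, TT10, TRY, ETC1 and GL1 (limma-voom adjusted p of 0.0820 to 0.967). 5MAT, which adds malonyl groups to anthocyanins, was at 0.63, 0.68 and 0.41 RPKM in cfm6-1, against 0.09, 0.16 and 0.15 RPKM in wild type (log2 change 2.05, SE 0.37, limma-voom adjusted p = 0.00151). TCL1, a single-repeat inhibitor of leaf hairs, was at 0.04, 0.07 and 0.17 RPKM in cfm6-1, against 0.62, 0.39 and 0.39 RPKM in wild type (log2 change -2.26, SE 0.51, limma-voom adjusted p = 0.00517). Its reads were 8 in cfm6-1 and 39 in wild type, so TCL1 entered that test only through the wild type libraries, where it is high. The genotypes did not overlap at 5MAT or TCL1, but both were picked because they passed on these same values. The 70% of all loci with at least 10 rebuilt reads is therefore no measure for it. TT2, the seed tannin MYB, was at 0.02, 0.16 and 0.10 RPKM in cfm6-1, against 0.02, 0 and 0 RPKM in wild type, and overlapped. Its reads were 14 in cfm6-1 and 1 in wild type, so TT2 entered that test only through the cfm6-1 libraries, where it is high.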
